A study of Mus musculus with 20 samples.

Results

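The genes described here encode 8 inhibitory receptors of T cells: Pdcd1, Ctla4, Lag3, Tigit, Btla, Cd200, Cd160 and Havcr2. They were taken as a fixed set of symbols, chosen with earlier results of these data known. Counts of called members are therefore descriptions of a set that was not picked independently of the data. Each symbol matched 1 probe, so that the set took 8 of the 39429 probes (8 of 30199 gene names) of the array, and all 8 were among the 22264 probes detected well enough to be tested. RNA of flow-sorted CD4 T cells was measured on 20 single-colour arrays in 12 groups. All cells came from B6.Cg-Foxp3<tm1Mal> mice, in which GFP marks Foxp3 expression, of both sexes and 8 to 14 weeks of age. Each array held the pooled cells of 8 to 15 mice and stands for a pool. The p-values measure the spread between arrays of a group, which differed in pool, slide and RNA input. Peripheral lymph nodes (pLN) were taken 12 days (d12, 2 arrays per group) or 25 days (d25, 1 array per group) after subcutaneous immunization with keyhole limpet hemocyanin in alum, and yielded naive T cells, regulatory T (Treg) cells, GL7+ follicular helper (TFH) cells and follicular regulatory (TFR) cells. Peyer's patches (PP), for which the labels name no immunization or day, yielded Treg, TFR, TFH GL7+ and TFH GL7- cells (2 arrays per group). According to the methods of the study, B220+ cells were gated out, naive and TFH cells were GFP-, Treg and TFR cells GFP+, naive and Treg cells negative or low for the PD1 protein (PD1-), TFH and TFR cells PD1hi, and TFR cells were collected irrespective of GL7. PD1 is the product of Pdcd1. A difference of Pdcd1 between a PD1hi and a PD1- fraction therefore restates the gate and is given as a description.

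Inhibitory receptors set the threshold at which a T cell responds to antigen. PD1, CTLA4 and BTLA belong to the same wider family as CD28: PD1 binds PD-L1 and PD-L2, CTLA4 competes with CD28 for CD80 and CD86, and BTLA binds the TNF receptor HVEM. CD160 shares HVEM as a ligand, LAG3 binds MHC class II, TIGIT binds the poliovirus receptor and nectins in competition with CD226, and TIM3 (Havcr2) recognises galectin 9 among others. CD200 differs from the rest in that it is mainly a ligand, seen by the receptor CD200R on myeloid cells. In germinal centres TFH cells are known for high PD1 and BTLA, and Treg cells for constant CTLA4 and for TIGIT.

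Positions of the probes follow the annotation of the array design, in mouse assembly mm9, and each probe carries the RefSeq mRNA accession of its gene; which exon or UTR it lies in was not determined here. On chromosome 1, the probe of Pdcd1 lies at chr1:95935064-95935123 on the minus strand and that of Ctla4 at chr1:60971801-60971860 on the plus strand. Chromosome 16 holds the probes of Tigit at chr16:43649114-43649173 (minus), Btla at chr16:45252905-45252964 (plus) and Cd200 at chr16:45382387-45382446 (minus). In the RefSeq gene order of assembly GRCm38.p6, Btla and Cd200 are neighbours with only the predicted genes Gm30636 and Gm30760 between them. The probe of Havcr2 lies at chr11:46294675-46294734 (plus). The probes of Lag3, at chr6:124854570-124854866 (minus), and of Cd160, at chr3:96609753-96612738 (minus), span 297 and 2986 bases for a length of 60, so both match the genome in more than 1 block.

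To show the sequence in front of members whose RNA behaved differently, the 250 bases before the annotated start of 4 genes are printed from RefSeq (GRCm38.p6), in the direction of the gene. Btla and Cd200 are shown as neighbours with different patterns, Tigit as the member with the widest range on the log2 scale and Havcr2 as the member least like the others. Capitals mark matches, on either strand, to TGTGGT (the core of RUNX sites), CAGCTG (an E-box), GGAAA (the core of NFAT sites) and TGANTCA (an AP-1 site); TGTGGT reads ACCACA and GGAAA reads TTTCC on the other strand.
Btla, chr16:45224087-45224336, plus strand: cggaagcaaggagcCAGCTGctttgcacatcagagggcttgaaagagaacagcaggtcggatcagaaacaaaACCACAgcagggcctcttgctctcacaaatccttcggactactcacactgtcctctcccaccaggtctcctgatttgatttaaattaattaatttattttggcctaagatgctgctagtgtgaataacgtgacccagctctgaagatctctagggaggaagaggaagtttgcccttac
Cd200, chr16:45409054-45409303, minus strand: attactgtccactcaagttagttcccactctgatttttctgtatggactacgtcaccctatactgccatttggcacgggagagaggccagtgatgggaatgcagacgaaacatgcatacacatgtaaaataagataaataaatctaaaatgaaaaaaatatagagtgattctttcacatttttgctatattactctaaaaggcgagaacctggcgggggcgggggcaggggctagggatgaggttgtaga
Tigit, chr16:43664185-43664434, minus strand: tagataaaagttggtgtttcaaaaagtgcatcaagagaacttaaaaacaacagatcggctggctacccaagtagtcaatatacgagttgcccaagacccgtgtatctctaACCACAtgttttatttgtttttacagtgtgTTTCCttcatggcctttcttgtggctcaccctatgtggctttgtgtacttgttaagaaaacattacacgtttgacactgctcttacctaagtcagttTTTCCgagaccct
Havcr2, chr11:46454681-46454930, plus strand: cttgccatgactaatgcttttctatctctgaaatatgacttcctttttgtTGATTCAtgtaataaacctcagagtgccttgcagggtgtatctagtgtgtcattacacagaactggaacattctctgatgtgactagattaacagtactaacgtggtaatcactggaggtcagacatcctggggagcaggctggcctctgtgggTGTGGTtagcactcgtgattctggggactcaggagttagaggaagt
The promoter set held 8 entries for the members, 2 of them of Cd160 and none of Lag3, so entries are not genes. TGTGGT was found in 5 of the 8 entries, which were both entries of Cd160 and those of Btla, Tigit and Havcr2. Over all 32851 promoters of the same length it was found in 14.0%. GGAAA was found in 4 of the 8 against 55.6% of all, CAGCTG in 2 against 4271 of the 32851 and TGANTCA in 1, Havcr2, against 6.75%. In the window of Cd200 none of the 4 motifs was found. These are matches of letters and not measured binding sites.

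Intensity is given on the linear, normalised scale of the arrays, and differences as log2 with the standard error (SE) of the model. A member counts as called where its adjusted p (limma, Benjamini-Hochberg over all tested probes) was under 0.05 and its log2 difference at least 1 in size. As these are bulk fractions, fewer cells that express a gene and less RNA of it per cell cannot be told apart. Between 43.0% and 58.0% of the probes were detected per array and none was saturated. Of the members, 6 were detected on all 20 arrays, Tigit on 19 and Havcr2 on 9. Foxp3 went with the labels, at 13409 to 35129 in the GFP+ fractions and at most 192 in the others. The TFR groups of the tissues differed in other markers. In pLN d12, 6 TFH genes summed to 49224 and 61689 in TFR, 25676 and 26738 in Treg and 402539 and 274099 in TFH cells. TFR cells of PP had 273525 and 249049. For 5 naive genes the sums were 120610 and 99149 in TFR cells of pLN d12 and 33893 and 24661 in those of PP. The arrays lay on 5 slides of 4, each slide holding the 4 groups of 1 tissue and day. Differences between cell fractions therefore lie within slides, while differences between tissues or days lie between slides. The model took arrays of a slide as independent, although the correlation within slides was 0.742. The PP slides differed from each other: 12 B cell genes summed to 25137 to 174705 on slide 4 (PP replicate 1) and to 6603 to 15345 on slide 5 (PP replicate 2), against 4892 to 25931 in pLN, and 8 epithelial genes to 14403 to 39741, 6904 to 14625 and 3451 to 10166, respectively. Because comparisons below share groups, for instance the Treg arrays, their results are not independent of each other.

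**Figure D1:**
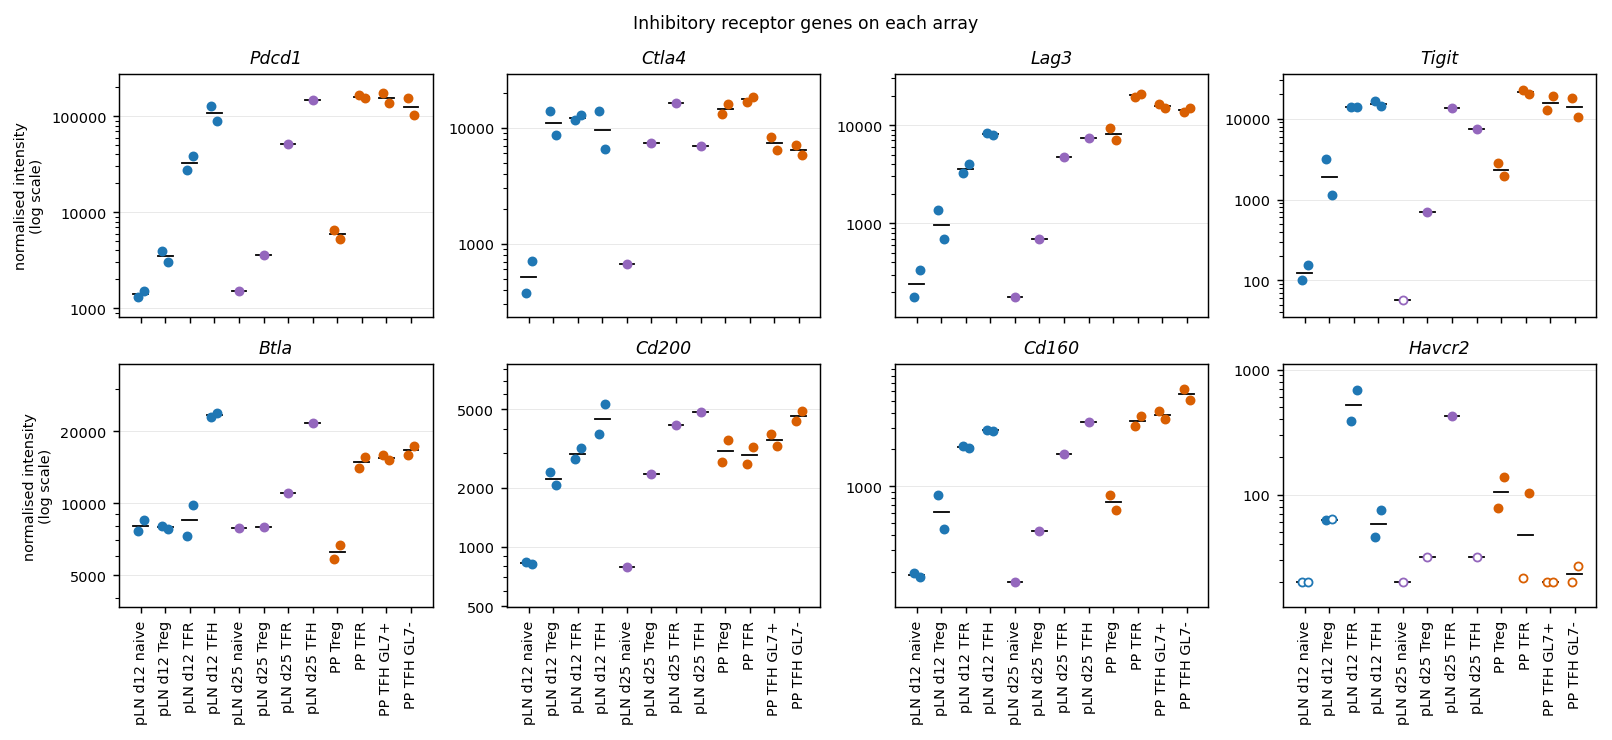
Normalised intensity (log scale) of each member on each of the 20 arrays, by group; blue is pLN d12, purple pLN d25 and orange PP, filled points were detected, open points were below background, and black lines are geometric means. Naive T cells hold the lowest values of 6 members, Btla is highest in pLN TFH cells, and Havcr2 reaches 389 to 694 in pLN d12 TFR cells.

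The F test over the 12 groups called all 8 members, the gated Pdcd1 among them, and 17.3% of all tested probes. TFH cells of pLN d12 exceeded naive T cells in 7 of 8 members, where 9.27% of all probes were called higher; leaving aside Pdcd1, whose protein was gated, these were 6 of 7. Treg cells exceeded naive T cells in 6 of 8 (5 of 7 without Pdcd1, 2.86% of all probes). The count was 0 of 8 when the model held the 4 arrays of these groups alone. Over all alternatives, the share of all probes called there in either direction ran from 0% to 6.41%. TFR cells of pLN exceeded Treg cells in 5 of 8 members (4 of 7 without Pdcd1, 5.79% of all probes). TFH cells exceeded Treg cells in 6 of 8 (5 of 7 without Pdcd1, 6.1% of all probes). Fitted on their own 4 arrays these counts were 1, the gated Pdcd1 alone, and 2, Pdcd1 and Btla. Over all alternatives, 2.63% to 12.3% and 3.17% to 14.7% of all probes were called in either direction. The median log2 difference of the 8 members was 4.06, 1.68, 1.83 and 1.89 in these comparisons, beside -0.09, -0.03, -0.08 and -0.06 over all tested probes. These medians include Pdcd1, which restates the gate in each of the comparisons but Treg minus naive.

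Between the PD1hi fractions themselves fewer members differed. In pLN d12, TFR cells were lower than TFH cells in Pdcd1 and Btla and higher in Havcr2, while 2.2% of all probes were called lower and 2.81% higher. With the 4 arrays of these groups alone none of the 8 members was called. Over all alternatives, the share of all probes called there in either direction ran from 0% to 8.65%. In PP, TFR and TFH GL7+ cells differed in 0 of 8 members (3.44% of all probes), while 1 of 8, Ctla4, had an unadjusted p under 0.05, as had 2548 of the 22264 tested probes. TFR cells of PP exceeded Treg cells in 5 of 8 members (4 of 7 without Pdcd1; 6.23% of all probes called higher). TFH GL7+ cells of PP exceeded Treg cells in 4 of 8 (3 of 7 without Pdcd1; 5.26% of all probes called higher) and were lower in 1 of 8, Havcr2 (4.62% called lower). Again the comparison of TFR with Treg cells of PP held 0 called members when fitted on its own 4 arrays. Its share of all probes called in either direction ran from 0% to 14% over all alternatives.

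**Figure D2:**
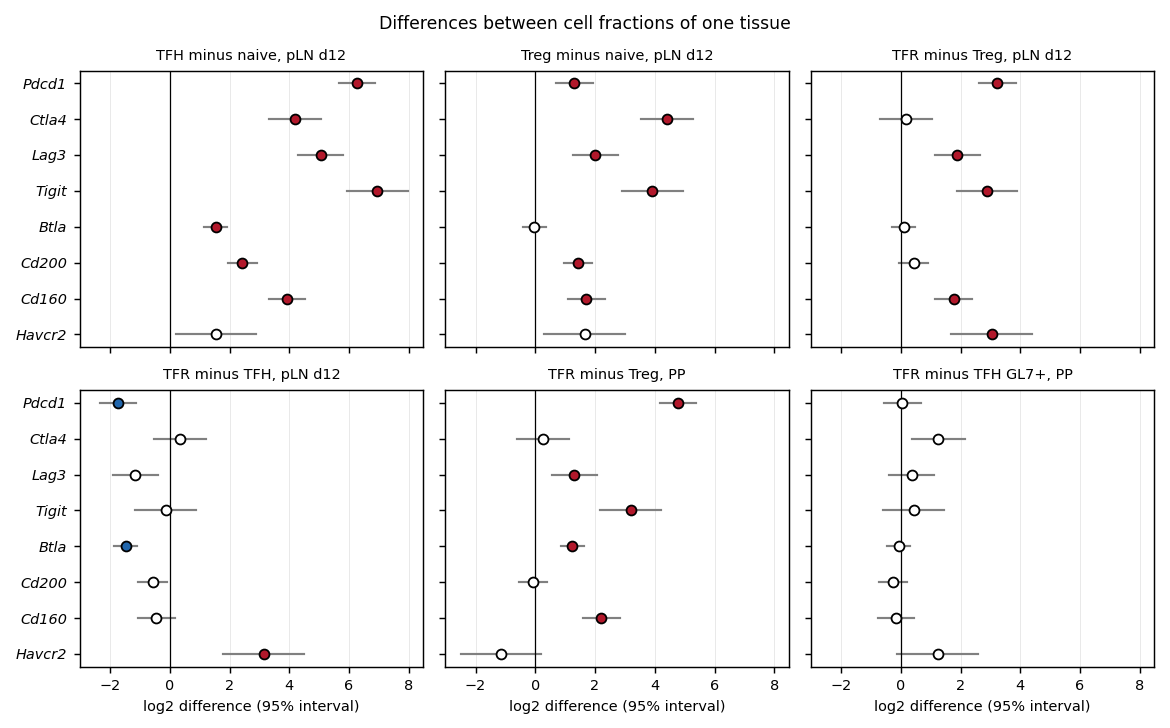
Log2 difference of each member (point) with its 95% interval (line) in 6 comparisons between cell fractions of 1 tissue; red and blue points were called higher and lower, white points were not called. TFH minus naive has 7 red points, TFR minus TFH in pLN has 2 blue points and 1 red, and TFR minus TFH GL7+ in PP has none.

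Pdcd1 followed the PD1 gate over all groups, with a separate order inside the PD1hi fractions. Intensity was 1297 and 1514 in naive T cells of pLN d12, 3987 and 3015 in Treg cells, 27456 and 38287 in TFR cells and 127879.7 and 90409 in TFH cells. Treg cells of PP had 6517 and 5300.2, TFR cells 166512 and 155321, TFH GL7+ cells 174442 and 138438 and TFH GL7- cells 154302 and 103238. On d25 of pLN, naive T cells had 1527, Treg cells 3627, TFR cells 51386 and TFH cells 147254. TFR cells of pLN thus lay between Treg and TFH cells without overlap, while those of PP lay within the range of TFH GL7+ cells. By the gate, the differences of TFH from naive (log2 6.26, SE 0.28), TFR from Treg in pLN (3.23, SE 0.28) and TFR from Treg in PP (4.77, SE 0.28) restate that gate.

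Among fractions of the same PD1 gate, Pdcd1 was lower in TFR than in TFH cells of pLN d12 by a log2 difference of -1.73 (SE 0.28, adjusted p = 0.00447). The call was lost without replicate 1 of the TFH cells (-1.48, adjusted p = 0.0511) or of the TFR cells (-1.49, adjusted p = 0.0505). In PP the same difference was 0.05, with a 95% interval from -0.56 to 0.66. The difference between these differences was 1.78 (SE 0.39, adjusted p = 0.0986), not called; with slide as a random block the adjusted p was 0.00836. TFR cells of PP had more Pdcd1 RNA than those of pLN d12 (2.31, SE 0.28, adjusted p = 0.000778). The PD1- Treg cells exceeded the likewise PD1- naive T cells (1.31, SE 0.28, adjusted p = 0.0242), a call lost when any 1 of the 4 arrays was left out, with adjusted p between 0.0517 and 0.243.

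Ctla4, the competitor of CD28, was low in naive T cells and was called in none of the comparisons made between the other fractions of a tissue. It was 374 and 712 in naive T cells of pLN d12, 13800.0 and 8561 in Treg cells, 11537 and 12845 in TFR cells and 13787 and 6589 in TFH cells. The d25 arrays had 671 in naive T cells, 7352 in Treg cells, 16444 in TFR cells and 6963 in TFH cells. TFH and Treg cells exceeded naive T cells by 4.21 (SE 0.39, adjusted p = 4.76e-05) and 4.40 (SE 0.39, adjusted p = 0.00014). The TFH, Treg and TFR groups of d12 overlapped, and the difference of TFR from Treg cells was 0.16 (95% interval -0.71 to 1.04) and of TFH from Treg cells -0.19 (-1.06 to 0.68), with signs that turned when single arrays were left out.

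In PP the order of Ctla4 was wider: 13224 and 15945 in Treg cells, 16762 and 18275 in TFR cells, 8305 and 6432 in TFH GL7+ cells and 7103 and 5818 in TFH GL7- cells. Both GFP+ groups lay above both TFH groups without overlap. The difference of TFR from TFH GL7+ cells was 1.26 (SE 0.39, adjusted p = 0.148) and that of TFH GL7+ from Treg cells -0.99 (SE 0.39, adjusted p = 0.148), neither called; with slide as a random block the first was called (adjusted p = 0.0441). TFR cells of PP and pLN d12 differed by 0.52 (SE 0.39, adjusted p = 0.433).

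Lag3, the MHC class II receptor, was called higher in PP than in pLN in both Treg and TFR cells. In pLN d12 it was 178 and 332 in naive T cells, 1354 and 698 in Treg cells, 3259 and 3997 in TFR cells and 8230.2 and 7842 in TFH cells, 4 groups without overlap, and the d25 arrays kept this order with 179, 689, 4682 and 7324. In PP, Treg cells had 9291 and 7131, TFR cells 19150.0 and 20944, TFH GL7+ cells 16263 and 14799.7 and TFH GL7- cells 13756 and 15088. Treg cells of PP therefore stood at the level of the TFH cells of pLN, and all follicular groups of PP above it.

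In pLN, Lag3 rose from naive to TFH cells by 5.05 (SE 0.34, adjusted p = 7.53e-06) and to Treg cells by a difference with a 95% interval from 1.25 to 2.75 (SE 0.34, adjusted p = 0.00713), the latter not called without replicate 1 of the naive (1.55, adjusted p = 0.0662) or of the Treg cells (1.52, adjusted p = 0.0708). TFH exceeded Treg cells by 3.05 (SE 0.34, adjusted p = 0.000229). TFR exceeded Treg cells by 1.89 (SE 0.34, adjusted p = 0.00546), and by 1.41 (adjusted p = 0.0521) without replicate 2 of the Treg cells. TFR were lower than TFH cells by -1.15 (SE 0.34, adjusted p = 0.0864), not called, but past the threshold with slide as a random block (adjusted p = 0.0246).

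Between the tissues, Lag3 was higher in PP than in pLN d12 by 3.07 (SE 0.34, adjusted p = 0.00163) in Treg cells and by 2.47 (SE 0.34, adjusted p = 0.00146) in TFR cells. It was the single member called among Treg cells, where 1.82% of all probes were called higher, and with Pdcd1 1 of 2 members called higher among TFR cells (5.74% of all probes), while 1, Havcr2, was lower (5.39%). The Treg call was lost with slide as a random block (adjusted p = 0.052) and without slide 4 (2.87, adjusted p = 0.0781), as well as on the 4 arrays of these groups alone (adjusted p = 0.263). In TFH GL7+ cells the difference was 0.95 (SE 0.34, adjusted p = 0.143), and 0 of 8 members were called there (4.54% of all probes), with 3 of 8 at an unadjusted p under 0.05 beside 4365 of the 22264 probes. Treg cells of PP replicate 2, on the PP slide with fewer B cell and epithelial transcripts, had 7131 against at most 1354 in pLN d12; the part of RNA of such cells was not tested. Tissue and slide, and any difference in immunization, cannot be told apart in these differences. TFR exceeded Treg cells of PP by 1.30 (SE 0.34, adjusted p = 0.032), a call lost when any 1 of the 4 arrays was left out, with adjusted p between 0.0611 and 0.198.

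Tigit, the competitor of CD226 for the poliovirus receptor, had the widest range of the set on the log2 scale, with its lowest array below background. It was 99.9 and 156 in naive T cells of pLN d12, 3157 and 1133 in Treg cells, 13869 and 14108 in TFR cells and 16669 and 14296 in TFH cells. PP had 2793 and 1956 in Treg cells, 22671 and 20152 in TFR cells, 12948 and 19298 in TFH GL7+ cells and 18275 and 10541 in TFH GL7- cells. On d25 it was 56.3 (below background) in naive T cells, 693 in Treg cells, 13479 in TFR cells and 7443 in TFH cells. Naive, Treg and follicular cells formed 3 separate tiers, and within the follicular tier of PP the 2 TFH groups overlapped.

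The rise of Tigit from naive to TFH cells was 6.95 (SE 0.46, adjusted p = 6.92e-06) and from naive to Treg cells 3.92 (SE 0.46, adjusted p = 0.000766). TFR cells exceeded Treg cells by 2.89 (SE 0.46, adjusted p = 0.00292) in pLN and by 3.19 (SE 0.46, adjusted p = 0.00134) in PP, the latter with an adjusted p of 0.065 without slide 4. TFH exceeded Treg cells by 3.03 (SE 0.46, adjusted p = 0.00153) in pLN and by 2.76 (SE 0.46, adjusted p = 0.0027; 0.0628 without slide 4) in PP. In pLN, TFR and TFH cells differed by -0.14 (95% interval -1.16 to 0.87). Cd226, the activating counterpart, was at most 207 on any array and was called in none of the comparisons.

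Btla and Cd160 both encode receptors of HVEM. Of them, Btla was called higher in TFR than in Treg cells in PP and not in pLN, and Cd160 in both. Btla was 7632 and 8544 in naive T cells of pLN d12, 8066 and 7792 in Treg cells, 7315 and 9845 in TFR cells and 23091 and 23970.4 in TFH cells. The naive, Treg and TFR groups overlapped, and the TFH cells stood apart. On d25 naive T cells had 7914, Treg cells 7964, TFR cells 11046 and TFH cells 21653. The Treg cells of PP had 5861 and 6695, TFR cells 14047 and 15672, TFH GL7+ cells 15945 and 15149.8 and TFH GL7- cells 15999 and 17435. Here the TFR cells lay with the TFH cells, and only the Treg cells were low.

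By the test, Btla rose from naive to TFH cells by 1.54 (SE 0.17, adjusted p = 0.000143), while Treg and naive T cells differed by -0.03 (95% interval -0.41 to 0.36). TFH exceeded Treg cells of pLN by 1.57 (SE 0.17, adjusted p = 0.000211). TFR were lower than TFH cells of pLN by -1.47 (SE 0.17, adjusted p = 0.000689), and TFR and Treg cells of pLN differed by 0.10 (-0.28 to 0.48). In PP, TFR exceeded Treg cells by 1.24 (SE 0.17, adjusted p = 0.0011; 0.0613 without slide 4), TFH GL7+ exceeded Treg cells by 1.31 (SE 0.17, adjusted p = 0.000661; 0.0625 without slide 4), and TFR differed from TFH GL7+ cells by -0.07 (-0.45 to 0.32).

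The change of the Btla difference between TFR and TFH GL7+ cells from pLN to PP was 1.40 (SE 0.24, adjusted p = 0.0371), the single call among the members for a tissue difference of this kind (0.472% of all probes called in this direction). It was lost when any 1 of the PP or pLN TFR and TFH arrays was left out except replicate 2 of the pLN TFR cells, with adjusted p between 0.0787 and 0.156, and without slide 4 (1.52, adjusted p = 0.242). The corresponding change for TFR minus Treg cells was 1.15 (SE 0.24, adjusted p = 0.0862), and was called with slide as a random block (adjusted p = 0.00313). None of the 8 members was called for that tissue difference (0.548% of all probes), with 3 of 8 at an unadjusted p under 0.05 (Pdcd1, Btla and Havcr2) beside 1818 of the 22264 probes. As to its parts, TFR cells of PP were above those of pLN by 0.81 (SE 0.17, adjusted p = 0.0113, under the fold threshold), and TFH GL7+ cells of PP below those of pLN by -0.60 (SE 0.17, adjusted p = 0.0753), not called. B cells also express Btla. The 12 B cell genes summed to 174705 in PP TFR replicate 1 and to 13464 in replicate 2, where Btla was 14047 and 15672, so the array with more B cell transcripts had less Btla; the part of B cell RNA in the PP values was not tested.

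Cd160 was higher in the follicular fractions than in Treg cells of both tissues. It was 195 and 184 in naive T cells of pLN d12, 849 and 447 in Treg cells, 2139 and 2067 in TFR cells and 2898 and 2838 in TFH cells. On d25 the 4 fractions had 164, 431, 1852 and 3348 in the same order. The PP arrays had 854 and 639 in Treg cells, while TFR cells had 3099 and 3759, TFH GL7+ cells 4097 and 3544 and TFH GL7- cells 6219 and 5075, the highest of all groups. Cd160 is also known from NK cells and intraepithelial lymphocytes, for which 10 marker genes summed to 5300.1 to 14015 in pLN, 12157 to 27827 on slide 4 and 10420.5 to 20271 on slide 5, and the part of such cells was not tested. The groups of pLN d12 did not overlap, nor did those of PP except TFR with TFH GL7+ cells. TFH cells exceeded naive T cells by 3.92 (SE 0.28, adjusted p = 9.78e-06), Treg cells exceeded them by 1.71 (SE 0.28, adjusted p = 0.00564), and TFR exceeded Treg cells by 1.77 (SE 0.28, adjusted p = 0.00278) in pLN and by 2.21 (SE 0.28, adjusted p = 0.000631) in PP. TFH exceeded Treg cells by 2.22 (SE 0.28, adjusted p = 0.00048) in pLN and 2.37 (SE 0.28, adjusted p = 0.000318) in PP. TFR and TFH cells of pLN differed by -0.45 (95% interval -1.06 to 0.17).

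Cd200, the ligand of the myeloid CD200R, changed less than most members. It was 834 and 818 in naive T cells of pLN d12, 2392 and 2062 in Treg cells, 2804 and 3179 in TFR cells and 3732 and 5322 in TFH cells, without overlap between these groups. On d25 it was 788 in naive T cells, 2357 in Treg cells, 4163 in TFR cells and 4852 in TFH cells. For PP, Treg cells had 2718 and 3498 and TFR cells 2649 and 3234. TFH GL7+ cells had 3744 and 3258 and TFH GL7- cells 4368 and 4928. Treg cells overlapped there with TFR and with TFH GL7+ cells, while TFR and TFH GL7+ cells did not overlap. The rise over naive T cells was 2.43 (SE 0.21, adjusted p = 3.49e-05) in TFH cells and 1.43 (SE 0.21, adjusted p = 0.00354) in Treg cells. TFH exceeded Treg cells of pLN by 1.01 (SE 0.21, adjusted p = 0.0108), just over the fold threshold and under it without replicate 2 of the TFH (0.75, adjusted p = 0.0795) or of the Treg cells (0.90, adjusted p = 0.0896), and 0.99 with normexp background or with 75th percentile scaling alone.

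For Cd200 the difference of TFR from Treg cells was not called in pLN (0.43, 95% interval -0.05 to 0.90) or in PP (-0.08, -0.55 to 0.40), nor that from TFH cells of pLN (-0.58, SE 0.21, adjusted p = 0.19). Cd200 thus parted from its neighbour Btla in the Treg cells of pLN, where Cd200 was called over naive and Btla was not, and in the PP TFR cells, where Btla was called over Treg and Cd200 was not; the difference between the 2 genes was not tested.

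Havcr2, which encodes TIM3, was the member detected on the fewest arrays and was highest in the TFR cells of pLN. It was 389 and 694 in TFR cells of pLN d12 and 422 in those of d25. All other arrays lay at or below 138, those of naive T cells at the floor of 20, and those of TFH and Treg cells of d25 at 31.4 and 31.8, below background. In pLN d12 it was 46.1 and 74.7 in TFH cells and 62.2 and 63.7 in Treg cells, the latter value below background. Treg cells of PP had 78.3 and 138. The other PP groups had 21.6 (below background) and 103 in TFR cells, 20 on both arrays of TFH GL7+ cells and 20 and 27.0 in TFH GL7- cells, all 4 below background. The probe entered the test through the pLN TFR, pLN TFH and PP Treg groups, where both arrays detected it.

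In pLN d12, Havcr2 was higher in TFR than in Treg cells by 3.04 (SE 0.61, adjusted p = 0.00935) and than in TFH cells by 3.15 (SE 0.61, adjusted p = 0.0124). The first call was lost without either Treg array (adjusted p = 0.0523 and 0.0641) or without replicate 2 of the TFR cells (2.63, adjusted p = 0.0785), the second without replicate 1 of the TFH cells (2.80, adjusted p = 0.115) or replicate 2 of the TFR cells (2.73, adjusted p = 0.105). That TFR array had a local background of 268, against 24 to 78 on the others, and was higher in Havcr2 than the other TFR array; its part in the difference was not tested beyond the values without it. TFR cells of PP, 1 array of which was below background, were lower than those of pLN by -3.46 (SE 0.61, adjusted p = 0.00465). Over the alternatives this difference ranged from -4.59, without replicate 2 of the PP TFR cells, to -2.09, with normexp background, and it was not called on the 4 arrays of these groups alone (adjusted p = 0.131). TFH GL7+ cells of PP, both below background, were at least 3.59-fold lower than Treg cells. The test itself used the values at the floor (-2.38, adjusted p = 0.027). Its call was lost with no filter (adjusted p = 0.0737) and with the compared groups alone (adjusted p = 0.0641). It was also lost without either TFH GL7+ array (-2.38) or without replicate 2 of the Treg cells (-1.97). The tissue difference of TFR minus Treg cells was -4.19 (SE 0.86, adjusted p = 0.0778), not called, and -5.31 (adjusted p = 0.00875) without replicate 2 of the PP TFR cells. It was also called with normexp background (-2.44, adjusted p = 0.0273), with 75th percentile scaling alone (-4.15, adjusted p = 0.0476), with slide as a fixed (adjusted p = 0.0119) or random block (0.00332) and with RNA input as a covariate (0.015). TFR and Treg cells of PP differed by -1.14 (SE 0.61, adjusted p = 0.317), and by -2.27 (adjusted p = 0.015) without the same array. TFH minus naive (1.55, adjusted p = 0.111) and Treg minus naive (1.65, adjusted p = 0.259) were not called; with slide as a fixed or random block both were, at adjusted p of 0.0228 and 0.0123 for the first and 0.0497 and 0.0262 for the second.

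**Figure D3:**
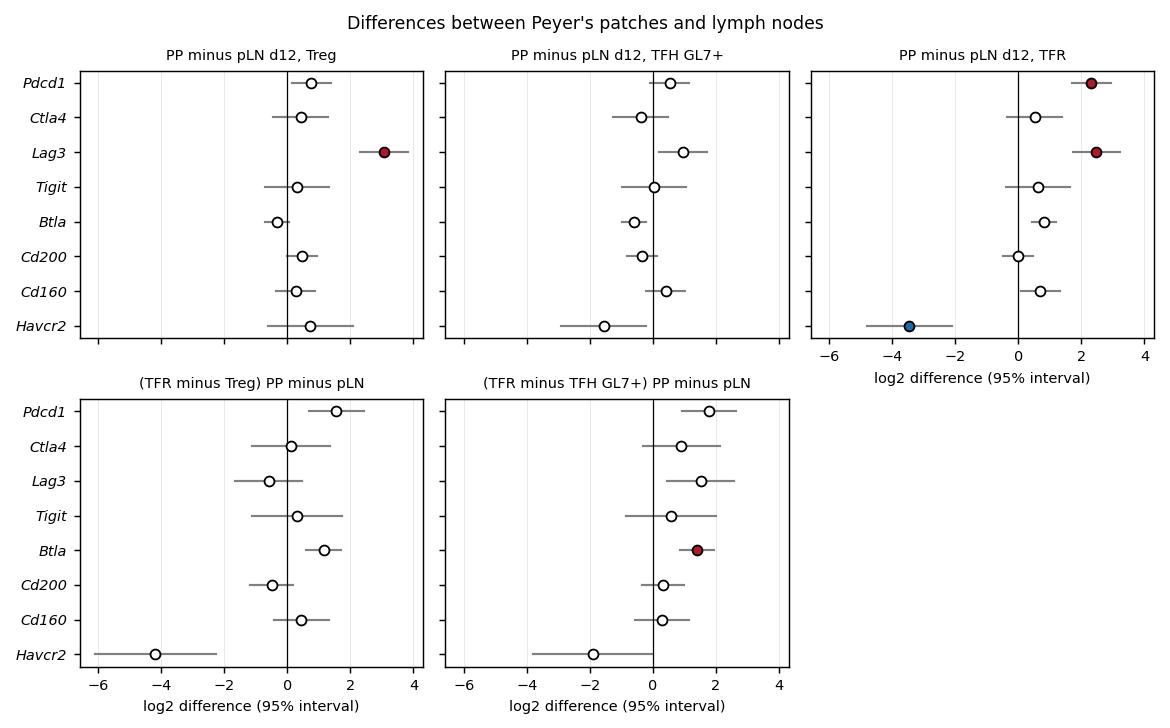
Log2 difference of each member (point) with its 95% interval (line) between PP and pLN d12 in Treg, TFH GL7+ and TFR cells, and the difference between the tissues in TFR minus Treg and in TFR minus TFH GL7+; red and blue points were called higher and lower, white points were not called. Lag3 is called in Treg cells, Lag3, Pdcd1 and Havcr2 in TFR cells, no member in TFH GL7+ cells, and Btla in 1 of the lower panels.

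No member was called for GL7 or for the day after immunization. TFH GL7+ and GL7- cells of PP differed in 0 of 8 members (0.00898% of all probes), with 0 of 8 at an unadjusted p under 0.05 beside 254 of the 22264 probes, and 0 of 8 by the methods' t-test. The differences lay between -0.56 for Cd160 (95% interval -1.18 to 0.06) and 0.30 for Pdcd1 (-0.31 to 0.91). Cd160, Cd200 (-0.41, -0.89 to 0.07) and Btla were lower in the GL7+ cells on each of the slides. Pdcd1 and Ctla4 were higher on each, and Lag3 and Tigit differed in sign between the slides. Between d25 and d12 of pLN, 0 of 8 members were called in naive (0.00898% of all probes), TFH (0.0314%), Treg (0%) and TFR cells (0.00898%), and the single difference at an unadjusted p under 0.05 was Tigit in Treg cells, at 693 on the single d25 array against 3157 and 1133 on d12 (-1.45, 95% interval -2.69 to -0.20, adjusted p = 1). Of all 22264 probes, 258, 635, 780 and 812 had an unadjusted p under 0.05 in naive, TFH, Treg and TFR cells. In TFH cells Tigit was 7443 on d25 (against 16669 and 14296; -1.05, -2.30 to 0.19), while Pdcd1 of TFR cells was 51386 against 27456 and 38287 (0.66, SE 0.34). With 1 array per d25 group and slide tied to day, these intervals are wide.

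The ligands and partners of the receptors were taken from 4 lists, chosen for what the genes are known to do. As earlier results of these data were known by then, counts from the lists are descriptions. Of 14 ligands and ligand receptors, 11 were tested, 2 of them called higher in TFH than in naive T cells (9.27% of all probes) and 3 in Treg cells (2.86%). Pdcd1lg2, which encodes the PD1 ligand PD-L2, was 273 and 386 in naive T cells of pLN d12, 3733 and 2649 in Treg cells, 7156 and 7977 in TFR cells and 6035 and 6275 in TFH cells. It rose over naive by 4.24 (SE 0.23, adjusted p = 2e-06) in TFH and 3.28 (SE 0.23, adjusted p = 3.22e-05) in Treg cells, and TFR exceeded Treg cells in both tissues (1.26, adjusted p = 0.00548 in pLN; 1.25, adjusted p = 0.00523 in PP). In TFR cells of pLN the TIGIT ligand genes moved apart, Nectin2 above Treg cells (2.13, adjusted p = 0.0116) and Pvr below (-1.03, adjusted p = 0.0195). The other PD1 ligand gene, Cd274, was between 1203 and 2716 on all 20 arrays and was called in none of the comparisons.

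Tnfsf14, whose product LIGHT binds HVEM, went with the follicular fractions. It was 288 and 570.5 in naive T cells of pLN d12, 2135 and 1225 in Treg cells, 6190.2 and 5511 in TFR cells and 9858 and 8113 in TFH cells, and rose over naive by 4.46 (SE 0.36, adjusted p = 2.02e-05) in TFH cells. The gene of HVEM itself, Tnfrsf14, was between 387 and 1138 on all arrays and was called in none of the comparisons. Cd86, the CTLA4 ligand, went with the GFP+ fractions: it was 314 and 346 in TFH cells of pLN d12 against 2163 and 2356 in Treg and 1727 and 2328 in TFR cells, and TFR exceeded TFH cells by 2.60 (SE 0.32, adjusted p = 0.000899) in pLN and by 2.08 (SE 0.32, adjusted p = 0.00426) in PP. Cd80 was 795 and 970.5 in TFR cells of PP and at most 364 in the other PP groups (1.36, adjusted p = 0.00111 over Treg cells), while a further probe of Cd80 differed by 2.20 with an adjusted p of 0.0725, not called. Cd80 and Cd86 are also expressed by B and myeloid cells. On slide 5, with fewer B cell transcripts than slide 4, Cd80 of TFR cells was 970.5 and Cd86 678 against 154 in TFH GL7+ cells, while 10 myeloid genes summed to 120109 to 131062 there, 81007 to 85050.0 on slide 4 and 50956 to 95591 in pLN; the part of these cells was not tested.

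Of 13 signalling partners, all tested, 3 were higher in TFH than in naive T cells (Ptpn11, Sh2d1a and Fyn; 9.27% of all probes were called higher) and none in Treg cells (2.86%). Ptpn11 encodes SHP2, the phosphatase recruited by PD1 and BTLA. It was 10046 and 11129.8 in naive T cells of pLN d12, 9553 and 9347 in Treg cells, 15328 and 17459.6 in TFR cells and 107065 and 82239.9 in TFH cells. Treg cells of PP had 9634 and 9344, TFR cells 47133 and 39915 and TFH GL7+ cells 151420.0 and 114354. TFR cells were below TFH cells in pLN (-2.52, SE 0.23, adjusted p = 0.000171) and in PP (-1.60, SE 0.23, adjusted p = 0.0031), above Treg cells in PP (2.19, SE 0.23, adjusted p = 0.00023), and higher in PP than in pLN (1.41, SE 0.23, adjusted p = 0.00346). Sh2d1a, whose product SAP links SLAM receptors to Fyn, was likewise higher in PP than in pLN TFR cells (1.33, SE 0.23, adjusted p = 0.0043), while Dok2, which encodes an adaptor that dampens receptor signals, was lower there (-1.28, SE 0.19, adjusted p = 0.00204).

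**Figure D4:**
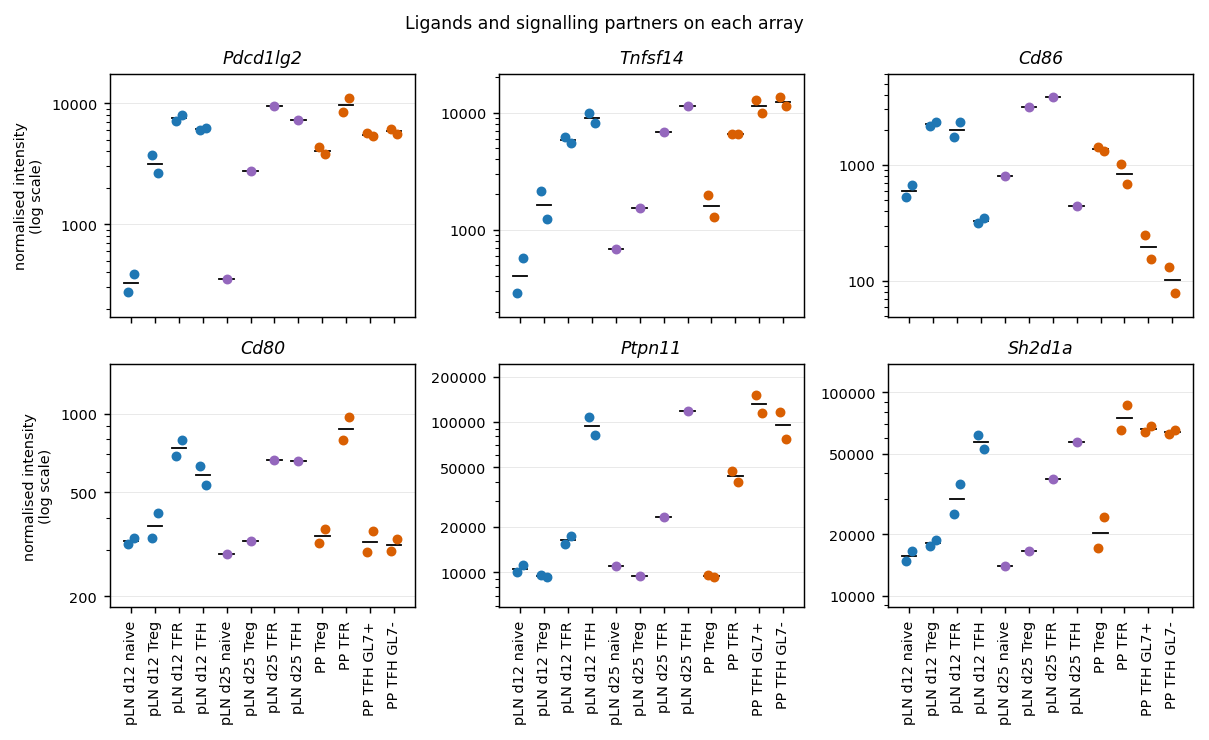
Normalised intensity (log scale) of 4 ligand genes and 2 signalling partners on each of the 20 arrays; colours, open points and lines are as for the members. Cd86 is high in Treg and TFR cells, Ptpn11 in TFH cells, and Cd80 in the TFR cells of PP at 795 and 970.5.

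Of 8 activating counterparts, 3 were higher in TFH than in naive T cells (9.27% of all probes): Icos (2.93, SE 0.50, adjusted p = 0.00188), Tnfrsf4, the OX40 gene (adjusted p = 4.44e-05; 3.88 in Treg cells), and Tnfrsf9 (1.83, SE 0.25, adjusted p = 0.000551). A further probe of Tnfrsf9 differed by 0.01 in the same comparison, so the value rests on 1 of its probes. Of 10 other inhibitory receptors, 0 were higher and 3 lower in TFH than in naive T cells (5.48% of all probes called lower), Lair1 (-2.27, adjusted p = 0.00902), Cd96 (-1.23, adjusted p = 0.00442) and Cd72 (-2.41, adjusted p = 0.00775). Tnfrsf18, which encodes GITR, was higher in TFR than in TFH cells of pLN (1.56, adjusted p = 0.0336) and of PP (1.71, adjusted p = 0.0281). In PP against pLN, none of the 11 tested ligands was called higher in Treg cells (1.82% of all probes), 1 was called in TFH GL7+ cells (Lgals9, the galectin 9 gene, 1.45, adjusted p = 0.0268; 4.54% of all probes) and 1 was lower in TFR cells (Cd86, -1.27, adjusted p = 0.0226; 5.39% of all probes). Klrg1 was called in the GFP+ fractions: 2532 and 2071 in Treg and 4710.5 and 6739 in TFR cells of pLN d12, against the floor of 20 in naive T cells and 48.8 and 47.4 in TFH cells.

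Likeness between members was described over the 12 group means, which share slides and gates. Pearson's r was highest between Pdcd1 and Cd160 (0.974) and between Tigit and Cd160 (0.955), 0.242 between Ctla4 and Btla, and between -0.222 and 0.58 for Havcr2 with each of the others. Havcr2 was detected on 9 of the 20 arrays, so its r values rest in part on values below background. Likeness to other genes was sought over 1 tested probe per gene symbol, with most unnamed transcripts left out. Each r is the highest of many and is given as a description. The gene most like the member was Phlpp2 for Pdcd1 (0.994), Il2rb for Ctla4 (0.981), Maf for Lag3 (0.986) and Hip1r among named genes for Tigit (0.988). For Btla it was Gnptab (0.974), for Cd200 Ifnar2 (0.98), for Cd160 Marcksl1 (0.991) and for Havcr2 Nap1l1 (0.958).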

How the data were processed

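RNA of 20 sorted samples was hybridised, 1 array per sample, with an input of 50 ng (slides 1 and 4) or 40 ng (the other slides). The deposited scanner files (Agilent Feature Extraction 10.7.3.1 per the submitters' notes) hold the background-subtracted processed intensity of each feature, and the authors' table holds intensity that the authors averaged per probe, quantile normalised, scaled to a common 75th percentile and floored at 20. Probe values were rebuilt after the methods of the study from the scanner files, as the geometric mean of 4 features; features flagged as outliers or by hand, far outside the interquartile range of their probe, or with a pixel CV above 0.5 were left out, unless all features of a probe were, when all were used. For the members they differed from the authors' values by at most 0.213 on the log2 scale. A probe was detected with at least 3 of 4 features well above background, and tested when detected on both arrays of a group of 2. The lowest detected intensity per array was 20 to 144, which limits low values. The number of arrays limits the precision.

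limma 3.58.1 in R 4.3.3 was fitted with 12 group means to all 20 arrays (8 residual degrees of freedom, 18 comparisons, two-sided); a d25 group has a single array and borrows its spread from the rest. The F test used p under 0.001 and adjusted p under 0.005. Replicate numbers follow the order of deposition. Further probes of a list gene were compared with the brightest tested one, which was used. A fold marked "at least" raises each array below background to its lowest detected intensity. Intervals are 95% intervals of the model. Alternatives were normexp background, 75th percentile scaling alone, all features averaged, the authors' values, no or stricter filter, compared groups only, slide as fixed or random block, RNA input, the methods' t-test, without slide 4 and without each array. The test was checked on simulated data. All 8 members were named, and of the list genes those called (the largest changes, or called in several comparisons), with the main ligands; members and lists were chosen with earlier results of these data known. Further pLN experiments of the study are not analysed here.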

Additional observations from a re-analysis of the deposited data

Results flagged for a closer look

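The difference of Btla between TFR and TFH GL7+ cells differed between PP and pLN d12 by 1.40 on the log2 scale (SE 0.24, adjusted p = 0.0371). Tissue and slide, and any difference in immunization, cannot be told apart in it. In pLN d12 the TFR cells had 7315 and 9845 and the TFH cells 23091 and 23970.4; in PP the TFR cells had 14047 and 15672 and the TFH GL7+ cells 15945 and 15149.8. The call was lost under 11 of 19 alternatives, and the B cell sums that differ between the PP slides were given beside it; their part was not tested.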

How the results depend on the processing

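Of 42 calls of a member in a comparison, 14 held under every alternative run and the rest were lost under at least 1. No called difference changed its sign, and the cause was not tested. The 14 include Pdcd1 in TFH minus naive, TFR minus Treg and TFH minus Treg of pLN and in TFH GL7+ minus Treg of PP. These calls of Pdcd1 restate the gate. The single alternative that lost the most calls was fitting the compared groups alone, which leaves 2 arrays against 2: the members called were then 0 for Treg minus naive, 1 for TFR minus Treg in pLN, 0 for TFR minus TFH in pLN, 2 for TFH minus Treg in pLN, 0 for TFR minus Treg in PP, 3 for TFH GL7+ minus Treg in PP, 0 for PP minus pLN in Treg cells and 0 for the tissue difference of TFR minus TFH GL7+. Without slide 4 they were 2, 3, 0 and 0 for TFR minus Treg in PP, TFH GL7+ minus Treg in PP, PP minus pLN in Treg cells and that tissue difference, and 4 in the F test. Probes detected on all arrays leave out Tigit and Havcr2. They gave 3 for TFR minus Treg in pLN and 3 for TFH GL7+ minus Treg in PP. For the tissue difference of TFR minus TFH GL7+ they gave 0. The counts above 0 for TFR or TFH cells minus Treg cells within a tissue in this paragraph include Pdcd1, which restates the gate. The tissue difference of TFR minus Treg rose from 0 to 2 with normexp, 1 with 75th percentile scaling, 1 with no filter, and 3 each with slide as a fixed block, as a random block and with RNA input; that of TFR minus TFH GL7+ went from 1 to 0 with 75th percentile scaling and to 2 with each of those blocks or RNA input. The random block also gave 1 for TFR minus TFH GL7+ in PP and 0 for PP minus pLN in Treg cells, and RNA input 1 in TFH GL7+ cells. Leaving out single arrays, the counts ranged from 1 to 3 for TFR minus TFH and 3 to 5 for TFR minus Treg in pLN. They were 0 to 1 for TFR minus TFH GL7+ in PP and for both tissue differences. The share of all probes called in either direction moved over the alternatives as well. It ran from 0.0449% to 5.11% for the tissue difference of TFR minus Treg and 0% to 3.71% for that of TFR minus TFH GL7+. For TFR minus Treg in PP it was 0% to 14%, for PP minus pLN in Treg cells 0% to 5.13%, and in the F test 4.23% to 33.1%. Changes in the member counts were not set apart from these shifts.

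Signs turned only for differences near 0 that were not called. Btla in Treg minus naive was 0.011 with normexp and 0.018 with 75th percentile scaling, Pdcd1 in TFR minus TFH GL7+ of PP was -0.0081 with 75th percentile scaling, and Btla there 0.049 without slide 4.
Without single arrays, the log2 difference ranged from -0.72 to 0.34 for Ctla4 in TFH minus Treg, -0.18 to 0.89 in TFR minus TFH and -0.18 to 0.51 in TFR minus Treg of pLN, from -0.11 to 0.055 for Btla in Treg minus naive, -0.12 to 0.31 in TFR minus Treg of pLN and -0.15 to 0.012 in TFR minus TFH GL7+ of PP, from -0.12 to 0.22 for Pdcd1 there, and from -0.26 to 0.11 for Cd200 in TFR minus Treg of PP.
No paired analysis by replicate number was possible because the labels give none; slide as a fixed block pairs the arrays of a slide (correlation within slides 0.742) and lost no call in the comparisons it can fit, those within slides and the tissue differences. With 2 pools per group and 8 residual degrees of freedom, a difference that was not called may still be present, within the interval given.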
